A study of Mus musculus with 4 samples.

Results

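Conventional type 1 dendritic cells (cDC1) were looked for among live CD45+ cells sorted from MC38 tumors, as cells with at least 2 UMIs (unique molecular identifiers, each standing for 1 probed RNA molecule) of Xcr1 and Clec9a together. A cell also had to have at least 500 detected genes, at most 10% mitochondrial UMIs, at most 1 Ccr7 UMI and fewer than 0.2% of its UMIs from C1qa, C1qb and C1qc. It could hold at most 2 UMIs of Cd3d, Cd3e and Cd3g and at most 1 UMI of Ncr1 and Klrb1c. The rule found 289 cells among 28290 deposited barcodes. Because the cells were chosen by measured values of these genes, their levels are given below as a description, with no test.

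All 4 groups were mice of the B-hCTLA-4 line from Biocytogen, in which CTLA-4 is humanized, with C57BL/6 as the host strain, and all carried tumors from 500000 cells of MC38, a transplantable mouse colon adenocarcinoma line, placed under the skin. Intraperitoneal treatment began at a tumor size near 100 mm3 and tumors were taken on day 8, after 3 treatments. The groups received a human IgG1 isotype control at 10 mg/kg, ipilimumab (a human IgG1 against human CTLA-4) at 10 mg/kg, AT130-2 mIgG1-N297A (an antibody to mouse FcγRII made in house) at 20 mg/kg, or both antibodies. Tumors of 11 mice were pooled into 1 library per group, so each group is 1 sample, group and library cannot be told apart, and no comparison between groups has a replicate or a p-value. The titles and the treatment entries of the single-antibody libraries contradict each other, each naming the other antibody. These libraries are therefore called by their titles, anti-human CTLA-4 and anti-mouse FcγRII, and which antibody each of them received could not be resolved. Pooled tumors cannot show differences between mice, and the mouse numbers, day and doses given here are those of the series description, which differ from the methods of the article. Values below are in the order isotype control, titled anti-human CTLA-4, titled anti-mouse FcγRII and combination.

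cDC1 are the dendritic cells that depend on the transcription factors IRF8 and BATF3 and are known for cross-presentation, the display of antigen from other cells on MHC class I to CD8+ T cells. They carry CLEC9A, a receptor for actin filaments exposed by dead cells, and XCR1, the receptor of the chemokine XCL1 made by NK cells and activated CD8+ T cells. In tumors they are known as a source of CXCL9 and IL-12, and once mature they gain CCR7 and move to draining lymph nodes, which is why cells with Ccr7 were kept apart here.

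The rule rests on 2 genes, and their promoters are shown because nearly all that follows depends on which of them chose a cell. Clec9a had a UMI in 288 of the 289 cells and Xcr1 in 26. In GRCm38, Xcr1 lies on the minus strand of chromosome 9 between 123852315 and 123862029, and Clec9a on the plus strand of chromosome 6 between 129408862 and 129424763. The RefSeq promoters of GRCm38.p6 run from 250 bases before to 50 bases after the start of each gene, at chr9:123861980-123862279 on the minus strand and chr6:129408612-129408911 on the plus strand. They are printed 5′ to 3′ in lower case throughout, since neither holds a match to the motifs searched.
Xcr1 promoter: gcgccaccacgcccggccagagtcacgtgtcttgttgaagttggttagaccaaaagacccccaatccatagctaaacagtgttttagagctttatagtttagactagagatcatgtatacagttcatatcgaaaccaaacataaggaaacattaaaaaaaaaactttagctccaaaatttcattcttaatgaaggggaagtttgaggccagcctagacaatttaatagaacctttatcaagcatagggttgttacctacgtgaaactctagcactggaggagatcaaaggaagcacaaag
Clec9a promoter: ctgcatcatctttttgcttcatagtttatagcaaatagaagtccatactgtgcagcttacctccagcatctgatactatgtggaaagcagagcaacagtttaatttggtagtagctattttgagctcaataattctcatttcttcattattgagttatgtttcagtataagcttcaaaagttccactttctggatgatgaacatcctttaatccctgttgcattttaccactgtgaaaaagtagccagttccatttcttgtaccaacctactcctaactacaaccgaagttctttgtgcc
On both strands, the letters TGANTCA, an AP-1 motif of the kind that BATF3 and its JUN partners bind, were looked for along with an interferon response motif, a pair of GAAA runs with any 2 bases between them. The first stood in 7.81% of 32851 promoters in the table and in 3 of the 21 matched promoters of the cDC1 and rule genes, those of Zbtb46, Itgax and Havcr2. The second stood in 3.44% of all promoters and in 2 of those 21, Ifi205 and Tlr11, of which Ifi205 belongs to a family of near-identical copies. A match is no more than a run of letters in this window.

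The libraries held 178178393, 129151823, 142472286 and 196362818 UMIs over 8173, 6390, 6097 and 7630 barcodes, of which 8148, 6364, 6083 and 7599 passed the filters on genes and mitochondrial UMIs. The cells of the rule had a median of 8248, 10550, 8927 and 14210 UMIs, highest in the combination. By set, the Flt3 cells described below had 8060 UMIs in isotype control and 8459.5 in the combination, and the cells with neither gene 7923 and 14349. In the library titled anti-mouse FcγRII, 1 cell of 202891 UMIs held 36.2% of the UMIs of its 25 cells, whereas the deepest cell of the other libraries held 4.02%, 5.83% and 4.02%. That cell held 209 of the 210 Col3a1 UMIs and 158 of the 159 Top2a UMIs of the 25 cells. In isotype control the deepest cell, of 33304 UMIs, held 3931 of 3936 UMIs of the mast cell protease Mcpt2, and in the library titled anti-human CTLA-4 it held all 472 UMIs of the keratin gene Krt19. The 4 samples were hybridized separately and loaded together, and no full barcode was shared between libraries, while 103 of the 289 cells (35.6%) had a droplet part of the barcode seen in another library, against 33.2% of all cells. Doublets were not removed, because automatic Scrublet calls did not work on these libraries, and 1 cell of the rule was among the 5% with the highest scores.

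The cells made up 1.02% of the kept cells in isotype control (83 cells, exact 95% interval 0.812–1.26), 0.943% in the library titled anti-human CTLA-4 (60 cells, 0.720–1.21), 0.411% in that titled anti-mouse FcγRII (25 cells, 0.266–0.606) and 1.59% in the combination (121 cells, 1.32–1.90). The share was 1.56-fold that of isotype control in the combination (1.18–2.06), 0.926-fold in the library titled anti-human CTLA-4 (0.665–1.29) and 0.403-fold in that titled anti-mouse FcγRII (0.258–0.630). These intervals cover counting error only, not the spread between mice or libraries. A background was measured in T cells, which should lack both genes. Of these, 0.741%, 0.492%, 0.521% and 2.60% had at least 2 UMIs of Xcr1 and Clec9a, at median depths of 4432, 5140, 4677 and 6962.5 UMIs. Of the cells that met every other part of the rule, 4.33% (3.47–5.34), 4.08% (3.12–5.22), 2.58% (1.68–3.79) and 5.93% (4.94–7.04) met it, more than of T cells in each library. A minimum of 2 UMIs depends on depth, and these cells and the T cells were not drawn down to a common depth here. Their difference is therefore no measure of an excess over background. The intervals overlapped with those of T cells in the library titled anti-mouse FcγRII, where 1 of 192 T cells met the minimum (0.0132–2.87), and not in the combination, where 12 of 462 did (1.35–4.49). The T cell value was thus highest in the combination too. With cells drawn down at random to 4280 UMIs before the rule was applied, and shallower cells left out, the shares were 0.632% of 7290 cells, 0.552% of 5645, 0.258% of 5710 and 0.614% of 6730, and the combination stood at 0.971-fold of isotype control.

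Of the 1711 kept cells with at least 2 Xcr1 and Clec9a UMIs, 1386 (81.0%) were at or over the C1q limit and were left out, so most cells with these UMIs carried the complement genes of macrophages. Among C1q-rich macrophages the minimum was met by 3.74%, 7.98%, 2.30% and 12.1% of cells, and their Clec9a level was 7.27, 12.4, 3.78 and 18.8 CPM (UMIs per 1000000 UMIs of the set). Both measures were highest in the combination, as in T cells. Near the threshold, 226 cells passed every other part of the rule with 1 UMI and 94 members had exactly 2. Flt3, the growth factor receptor of dendritic cells, had a UMI in 14.6% of cells just outside, 29.8% of those with 2 UMIs and 37.4% of those with at least 3. Fcgr1, the high-affinity IgG receptor typical of monocytes and macrophages, had one in 75.7%, 70.2% and 55.9%.

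The cDC1 label was checked with 10 other genes of the lineage, Irf8, Batf3, Wdfy4, Cadm1, Itgae, Tlr3, Naaa, Snx22, Ifi205 and Gcsam. Of the 26 cells with an Xcr1 UMI, 23 had at least 7 of these markers, against 16 of 84 cells with Flt3 but no Xcr1 and 6 of 179 cells with neither. The medians were 8, 3 and 4 markers. By library, the Flt3 cells with at least 7 markers numbered 5, 9, 1 and 1, and the cells with neither 1, 5, 0 and 0. After cells were drawn down to 6228 UMIs, the counts were 20 of 24, 6 of 75 and 3 of 161. For comparison, 3 of 157 Cd209a dendritic cells, 0 of 84 Ccr7 dendritic cells (which allows up to 3.57%) and 5.67% of 12476 C1q macrophages reached 7 markers, the last falling to 0.0765% when drawn down. The label therefore held for most of the Xcr1 cells, whereas the data went against it for most of the others, which are called below by the genes they had.

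**Figure D1:**
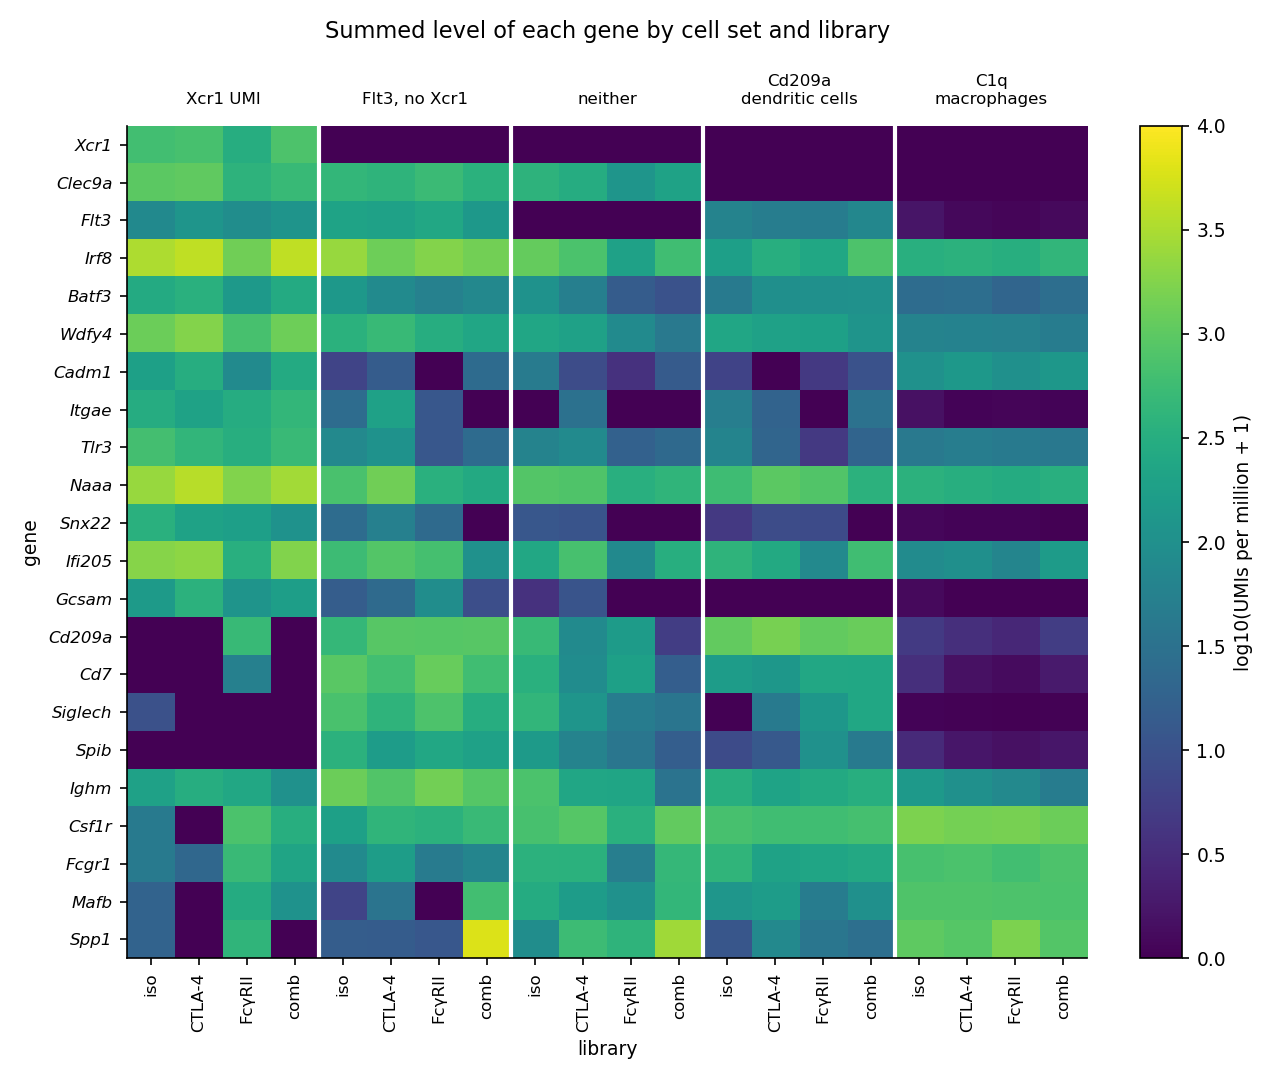
Heat map of summed levels (colour, log10 of CPM plus 1) of 22 genes (vertical axis) in 5 cell sets of the 4 libraries (horizontal axis; iso, isotype control; comb, combination). Batf3 (145 to 346 CPM), Wdfy4, Tlr3 and Naaa are brighter in the Xcr1 cells than in the other sets of the same library. Siglech and Spib are brightest in the Flt3 cells, and Csf1r and Fcgr1 are bright in macrophages and in the cells with neither. In the library titled anti-mouse FcγRII, Fcgr1 is brighter in the Xcr1 cells than in the cells with neither. There 1 Xcr1 cell held 56 of the 78 Fcgr1 UMIs of the rule's cells.

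The 3 sets were unevenly spread over the libraries. Xcr1 cells numbered 9, 5, 5 and 7, or 0.110%, 0.0786%, 0.0822% and 0.0921% of kept cells, and the combination stood at 0.834-fold of isotype control (0.311–2.24), an interval wide enough to hold a 2-fold difference in either direction. Cells with Flt3 but no Xcr1 numbered 39, 25, 10 and 10 and were less frequent in the combination (0.275-fold, 0.137–0.550). Cells with neither numbered 35, 30, 10 and 104 and were more frequent there (3.19-fold, 2.18–4.67). In the combination, 86.0% of the cells of the rule had neither gene, against 42.2%, 50% and 40.0% in the other libraries. The higher share of the whole set in the combination was thus carried by cells without Xcr1 or Flt3. In the library titled anti-mouse FcγRII the Flt3 cells stood at 0.343-fold of isotype control (0.172–0.687). Of dendritic cells outside the rule, those with Cd209a stood at 0.616-fold of isotype control in the combination (0.396–0.956) and 0.546-fold in the library titled anti-mouse FcγRII (0.333–0.895), and those with Ccr7 at 0.871-fold (0.520–1.46) and 0.419-fold (0.206–0.851).

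**Figure D2:**
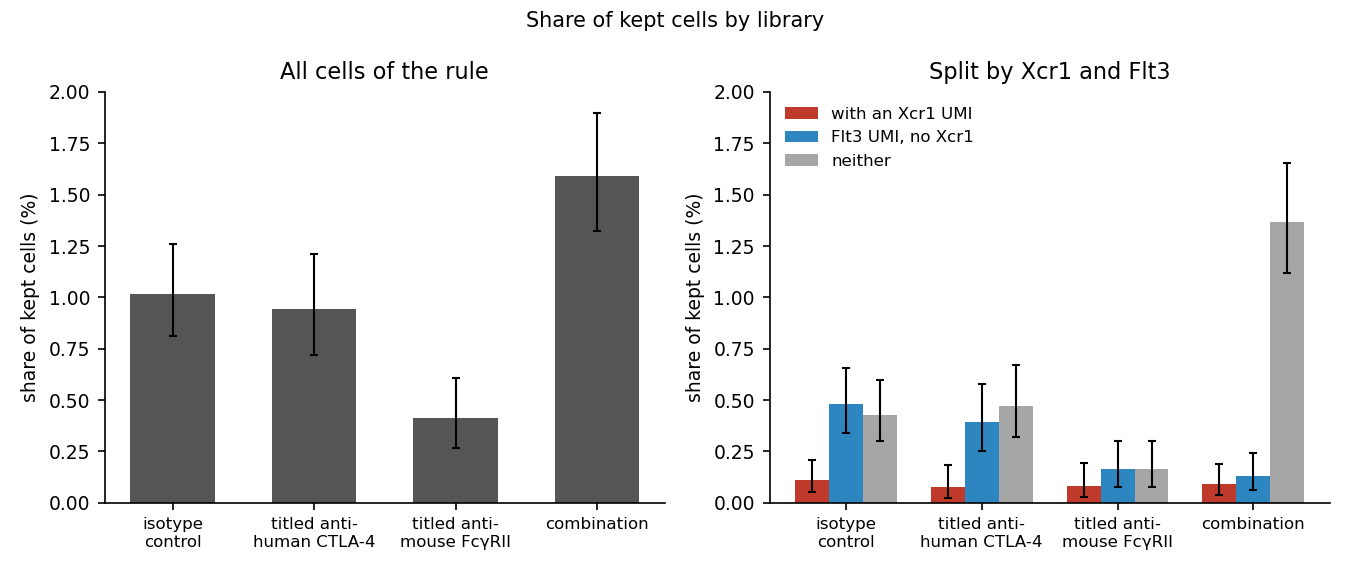
Share of kept cells in percent (vertical axis) by library (horizontal axis), for all cells of the rule on the left and split by Xcr1 and Flt3 on the right, with exact 95% intervals of counting error as bars. The combination is highest on the left at 1.59%, and on the right its excess lies in the cells with neither gene, at 1.37%.

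Among the Xcr1 cells the lineage regulators were present in every library. Irf8, the transcription factor that commits cells to cDC1, stood at 3227, 4112, 1372 and 4124 CPM, and its partner Batf3 at 280, 346, 145 and 281 CPM, with UMIs in 8 of 9, 5 of 5, 4 of 5 and 7 of 7 cells. Id2, an inhibitor of E proteins needed for cDC1, stood at 2265, 3297, 1390 and 2244 CPM, and Zbtb46, a factor shared by conventional dendritic cells, at 315, 448, 164 and 343 CPM. All 4 were lowest in the library titled anti-mouse FcγRII, where 2 of the 5 cells differed from the rest: 1 cell of 50661 UMIs had 56 Fcgr1 and 73 Csf1r UMIs, and 1 cell without Clec9a had 55 Cd209a UMIs and 2 of the 10 markers. In isotype control the cell with the Mcpt2 UMIs also had all 10 markers, and in the combination 1 cell held 28 Fcgr1 and 44 Csf1r UMIs with 5 markers.

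Of the surface receptors in these 26 cells, Xcr1 stood at 603, 692, 309 and 769 CPM and Clec9a at 988, 1058, 382 and 494 CPM. Cadm1, an adhesion molecule of cDC1, stood at 184, 305, 81.8 and 274 CPM, and Itgae, the CD103 integrin chain, at 297, 204, 300 and 439 CPM. Tlr3, the endosomal sensor of double-stranded RNA, stood at 630, 427, 318 and 522 CPM. Btla, an inhibitory receptor that binds HVEM, stood at 236, 326, 200 and 288 CPM. Except for Clec9a, none of these stood lower in the combination than in both isotype control and the library titled anti-human CTLA-4.

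For cross-presentation, Wdfy4, which cDC1 need to present cell-associated antigen, stood at 1268, 1812, 691 and 1317 CPM in the Xcr1 cells, with UMIs in all 26. Rab43, a small GTPase with a part in the same process, stood at 1084, 1242, 518 and 878 CPM. Naaa, an acid amidase of lysosomes that marks cDC1, stood at 2405, 3745, 1772 and 2827 CPM. Tap1, a chain of the peptide transporter that loads MHC class I, stood at 691, 773, 427 and 748 CPM, and H2-Ab1, an MHC class II chain, at 8702, 11602, 7979 and 9490 CPM. Genes of both presentation pathways were thus detected in every library. Cxcl9, the interferon-induced ligand of CXCR3, stood at 437, 773, 72.7 and 480 CPM and had UMIs in 3, 4, 1 and 5 cells, with 48 of 50, 33 of 38, 8 of 8 and 38 of 70 UMIs in 1 cell. That cell of the library titled anti-mouse FcγRII is the one with 56 Fcgr1 UMIs. Il12b, the shared IL-12 and IL-23 chain, and Fscn1, an actin bundler of mature dendritic cells, had a UMI in 0 of the 26 Xcr1 cells, which allows up to 11.5% of cells with a UMI and sets no limit on cells that express the gene, and Ccr7 had none either, although the rule allowed 1. Because the limit on Ccr7 keeps mature cells apart, the lack of Fscn1 was partly set by the choice of cells.

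Among the Xcr1 cells, cell cycle genes were highest in those of the combination. Mki67, a marker of dividing cells, had UMIs in 0 of 9, 1 of 5, 3 of 5 and 5 of 7 cells, at 0, 20.4, 36.4 and 535 CPM. Of the 7 cells in the combination, 4 had 21, 18, 23 and 13 Mki67 UMIs along with 11, 20, 21 and 10 UMIs of Top2a, the topoisomerase that untangles chromosomes before division. The 0 of 9 in isotype control allows up to 33.3% of cells with a UMI, so 9 cells limit the comparison. The summed level of the G2 and M phase list was 157, 81.4, 136 and 2182 CPM. In cells drawn down to 6228 UMIs, the share with a Mki67 UMI was 0%, 12.6%, 22.2% and 65.7%. The cells of the combination were deeper, at a median of 20813 against 11359 UMIs in isotype control, and the intervals of such small numbers are wide. Over all 289 cells the drawn-down share was 13.4%, 8.40%, 11.4% and 10.7%, with UMIs in 14, 9, 6 and 19 cells as deposited.

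**Figure D3:**
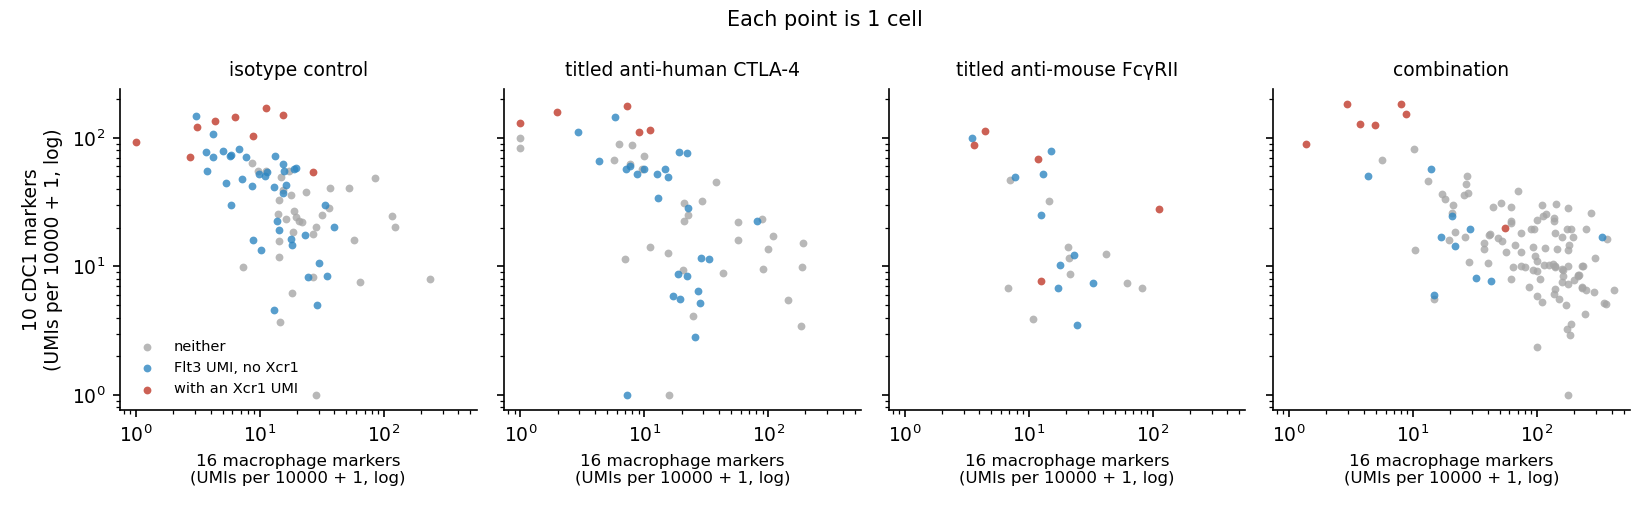
Summed UMIs per 10000 of the 10 cDC1 markers (vertical log axis) against the 16 macrophage markers (horizontal log axis) in each cell of the rule, 1 panel per library, coloured by Xcr1 and Flt3. Most of the 26 Xcr1 cells lie high and to the left, and most of the 121 cells of the combination lie low and to the right.

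Fcgr2b, the gene of the inhibitory receptor that AT130-2 is directed against, had UMIs in 3 of 9, 3 of 5, 3 of 5 and 4 of 7 Xcr1 cells, at 26.2, 305, 645 and 535 CPM. Costimulatory Cd86 stood at 315, 509, 191 and 233 CPM, and Cd40, the receptor for T cell help, at 17.5, 40.7, 9.09 and 130 CPM. Cd274, which encodes PD-L1, was at 0 in isotype control, where 3 UMIs would be 26.2 CPM, and at 142, 9.09 and 158 CPM elsewhere in 1, 1 and 2 cells. In the library titled anti-mouse FcγRII and in the combination, most macrophage and Fcgr2b UMIs lay in 1 cell. The macrophage list summed to 1181, 489, 5489 and 1427 CPM with Apoe the most abundant gene, and the cell with the most held 86 of 135, 10 of 24, 566 of 604 and 164 of 208 of its UMIs. The same cells held 1 of 3, 6 of 15, 64 of 71 and 70 of 78 Fcgr2b UMIs. Without them Fcgr2b stood at 24.7, 230, 118 and 69.4 CPM in the Xcr1 cells, with UMIs in 2 of 8, 2 of 4, 2 of 4 and 3 of 6 cells.

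Cells with Flt3 but no Xcr1 had genes of other dendritic cells. Siglech, a receptor of plasmacytoid dendritic cells, stood at 702, 403, 775 and 305 CPM, their factor Tcf4 at 609, 285, 490 and 297 CPM, and Spib, which acts with it, at 372, 161, 251 and 193 CPM. Each of the 8 genes of the plasmacytoid list was lower in the Xcr1 cells than in these cells in 4 of 4 libraries. Cd209a, a lectin of dendritic cells related to monocytes and of type 2 cells, stood at 462, 903, 878 and 914 CPM. Over all 289 cells, 45 had Siglech, 85 had Cd209a and 27 had both, while 1 Xcr1 cell had Siglech and 1 had Cd209a. Batf3 in the Flt3 cells was 133, 80.6, 57.0 and 72.2 CPM, below the Xcr1 cells of the same library in each case, and Clec9a was 440, 393, 536 and 361 CPM. As dendritic cell precursors and plasmacytoid cells are known to carry some Clec9a, these cells cannot be placed in 1 lineage from the genes of the rule.

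Cells with neither Xcr1 nor Flt3 held UMIs of macrophage genes although the C1q limit kept out the cells richest in complement. Their macrophage list summed to 4549, 5575, 2655 and 14431 CPM against 6695, 1742, 4481 and 7248 CPM in T cells, below the T cells in isotype control and the library titled anti-mouse FcγRII. Most of these sums rest on few cells. In the library titled anti-mouse FcγRII, 1 cell of 202891 UMIs held 56.1% of the UMIs of the 10 cells with neither gene. It had 9.91 macrophage UMIs per 10000, so it weighs on every summed level of that set. In the combination, the sum of the cells with neither gene was spread more widely, at 13448 CPM without the cell with most (2970 of 26764 UMIs). The median cell had 18.7, 20.9, 20.0 and 110 macrophage UMIs per 10000, against 10.7, 4.27, 4.75 and 10.9 in T cells, and the highest had 237, 190, 80.6 and 414, against 491, 205, 352 and 425. Fcgr1 had UMIs in 21 of 35, 21 of 30, 3 of 10 and 97 of 104 of them, and Csf1r, the receptor of the macrophage growth factor, stood at 688, 877, 351 and 1088 CPM. Of T cells, 93 of 405, 59 of 610, 27 of 192 and 165 of 462 had Fcgr1, and Csf1r stood at 454, 167, 271 and 537 CPM. Spp1, the secreted protein osteopontin, stood at 89.1, 543, 392 and 2694 CPM, against 401, 228, 841 and 526 CPM in T cells. Csf1r and Spp1 were highest in the combination and next highest in the library titled anti-human CTLA-4. Counted over all cells of the rule, those with Fcgr1 but without Xcr1, Flt3, Siglech and Cd209a were 12, 18, 1 and 96, which is 14.5%, 30.0%, 4.00% and 79.3% of each library.

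Levels over all 289 cells were compared next, with genes called at 2-fold or more where the counting interval of the ratio left out 1 and the level reached 50 CPM in either library. UMIs clump in few cells, so these intervals are too narrow as a measure of cells. Between the combination and isotype control 5310 genes were compared, 502 (9.45%) were called higher and 779 (14.7%) lower, and the median ratio was 0.787. Scaled by the median of ratios instead of total UMIs, the calls were 769 higher and 391 lower at a median of 1.04, so a fold near 1 has no direction here. In the 110 cells with an Xcr1 or Flt3 UMI, 5454 genes were compared, 291 (5.34%) were higher and 248 (4.55%) lower at a median of 0.964. Of the calls over all cells, 161 of 502 and 133 of 779 were among these. Xcr1 cells were 9 of these 48 cells in isotype control (18.8%) and 7 of 17 in the combination (41.2%), so a ratio over them mixes make-up with level, and the levels in each set are given below where they differ.

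The lineage genes of cDC1 were lower in the combination over all cells and in the Flt3 cells, but not in the Xcr1 cells, by their sum. The identity list summed to 18208 CPM in isotype control and 18458 in the combination in the Xcr1 cells, and to 7325 and 3570 CPM in the Flt3 cells. Of 17 identity genes compared, 9 were lower and 0 higher, with a median ratio of 0.442. Batf3 stood at 142, 82.8, 46.5 and 31.5 CPM, or 0.221-fold (0.161–0.301), and Wdfy4 at 429, 418, 236 and 139 CPM, or 0.325-fold (0.278–0.380). Irf8 stood at 1987, 1178, 674 and 878 CPM, or 0.442-fold (0.413–0.472). Over the cells with Xcr1 or Flt3 together, 4 of 20 identity genes were called higher and 0 lower, with a median of 1.12, which describes neither set on its own. Macrophage markers moved with the result over all cells, and their part in it was not tested. Their list of 16 genes summed to 2666, 3840, 3055 and 13352 CPM, 2, 0, 0 and 0 of the genes were at 0, and 11 of 15 compared were higher in the combination. Plasmacytoid markers summed to 3444, 1804, 1495 and 986 CPM, with Bst2 the most abundant, and 8 of 8 were lower.

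**Figure D4:**
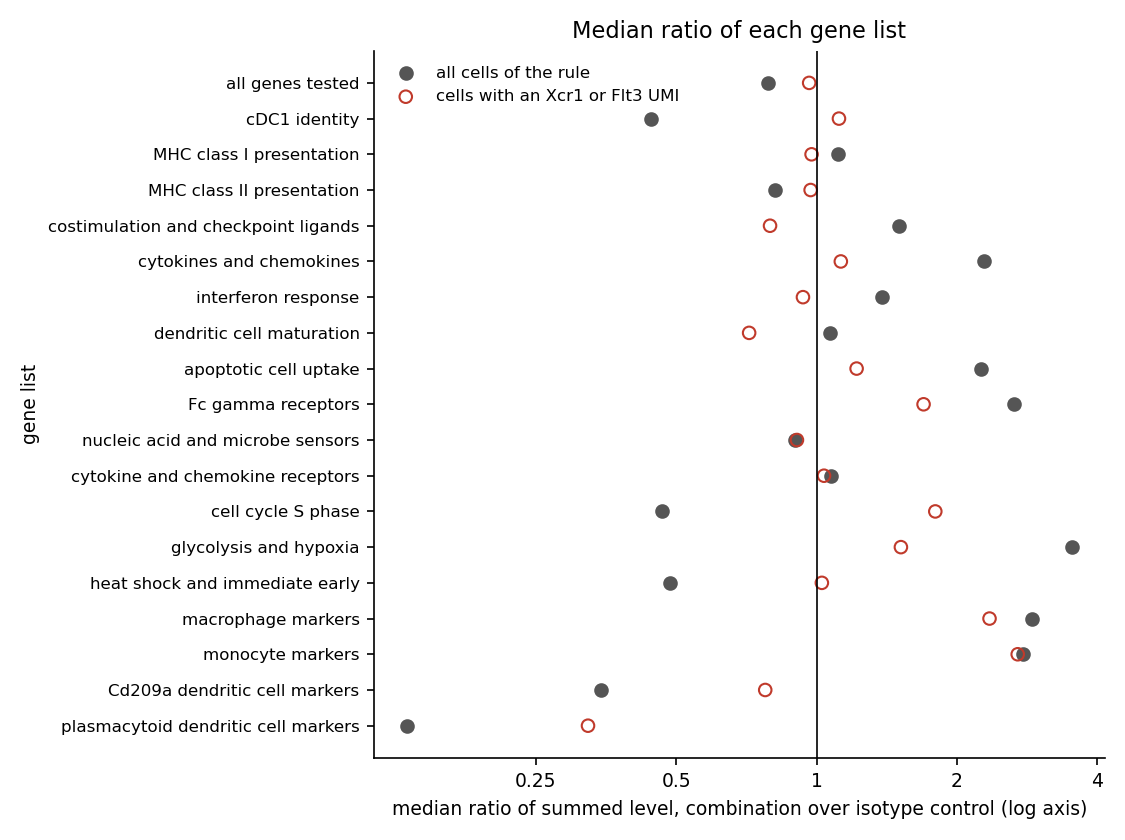
Median ratio of the combination over isotype control (horizontal log axis) for each gene list (vertical axis), over all cells of the rule (filled) and over cells with an Xcr1 or Flt3 UMI (open). The identity list lies at 0.442 over all cells and at 1.12 over the cells with Xcr1 or Flt3, of which 18.8% had Xcr1 in isotype control and 41.2% in the combination, and the glycolysis list lies at 3.53 and 1.52.

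Among checkpoint ligands and costimulators, 4 of 12 genes were higher in the combination and 3 lower, with a median of 1.5, whereas 1 of 9 was higher and 1 lower in the cells with Xcr1 or Flt3, at a median of 0.795. Cd274 stood at 60.4, 335, 41.1 and 847 CPM, 14-fold (10.6–19.0), and had UMIs in 14 of 83, 28 of 60, 6 of 25 and 107 of 121 cells. Drawn down, 11.5%, 44.2%, 8.44% and 80.5% of cells had Cd274 (16.9%, 46.7%, 24.0% and 88.4% as deposited), against 36.8%, 46.6%, 31.3% and 71.5% of C1q macrophages and 45.8%, 35.1%, 41.6% and 64.4% of T cells. Cd274 was thus more frequent in the combination in macrophages and in the T cells deep enough to be drawn down as well. Median depths of T cells were 4432, 5140, 4677 and 6962.5 UMIs, so outside the combination most were too shallow for 6228 UMIs. The T cell set also held macrophage UMIs, at 6695, 1742, 4481 and 7248 CPM. Within the cells of the rule Cd274 lay mostly in those with neither Xcr1 nor Flt3 (106, 526, 55.3 and 954 CPM). Pdcd1lg2, which encodes PD-L2, the other ligand of PD-1, stood at 33.8, 187, 8.93 and 216 CPM. Cd80 and Cd86, the CD28 ligands that CTLA-4 binds, were at 53.1, 112, 19.7 and 125 CPM and at 184, 255, 105 and 271 CPM. Cd83, a glycoprotein of mature dendritic cells, stood at 0.175-fold of isotype control in the combination (0.115–0.263), and at 0.340-fold in the cells with Xcr1 or Flt3.

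Of 14 cytokines and chemokines, 8 were higher in the combination and 1 lower, with a median of 2.29, against 3 higher and 3 lower of 11 in the cells with Xcr1 or Flt3, at a median of 1.13. Ccl5, a chemoattractant for T cells, stood at 58.0, 917, 16.1 and 1629 CPM, 28.1-fold (21.1–38.2), and Cxcl10 at 42.3, 102, 44.7 and 205 CPM, 4.86-fold (3.44–7.06). Cxcl9 stood at 692, 1470, 139 and 1046 CPM, 1.51-fold (1.38–1.66), and was highest in the library titled anti-human CTLA-4. All 3 were low in the library titled anti-mouse FcγRII beside the combination. In the Xcr1 cells Ccl5 was at 8.75, 40.7, 27.3 and 27.4 CPM, so it too lay in the other cells, and Il12b had a UMI in 0 of the 289 cells, which allows up to 1.04% of cells with a UMI. The neutrophil chemoattractant genes Cxcl2 and Cxcl3 stood at 76.5-fold and at least 94.6-fold of isotype control. Of 29 interferon response genes, 7 were higher and 3 lower at a median of 1.38. In the cells with Xcr1 or Flt3, 3 of 26 were higher and 5 lower at a median of 0.935, and their sum went from 5877 to 6738 CPM in the Xcr1 cells (3250 to 5051 without the cell with most UMIs of each library) and from 6566 to 3979 CPM in the Flt3 cells (6314 to 4320).

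In antigen presentation, 2 of 21 genes of the MHC class I list were higher in the combination and 1 lower (median 1.11), and 1 of 14 genes of the class II list was higher and 3 lower (median 0.815). Of all genes compared, 9.45% were called higher and 14.7% lower, so these counts higher are near the share over all genes. B2m, the light chain of class I molecules, was called higher, at 757, 1929, 1242 and 3368 CPM or 4.45-fold (4.10–4.84), and stood at 498.5 and 1462 CPM in isotype control and the combination in the Xcr1 cells and at 758 and 1516 CPM in the Flt3 cells. It was also higher in C1q macrophages (1032, 2261, 2002 and 3285 CPM) and T cells (1164, 2223, 2575 and 3084 CPM) of the combination than of isotype control. Cd1d1, which presents lipids, was the other gene called higher, at 14.5, 78.8, 10.7 and 184 CPM or 12.7-fold (7.17–24.7), with 376 of its 390 UMIs in the combination in cells with neither Xcr1 nor Flt3. H2-K1, a class I heavy chain, stood at 739, 995, 527 and 1388 CPM, or 1.88-fold (1.72–2.05), short of 2-fold by total UMIs. It was 0.83-fold in the cells with Xcr1 or Flt3. Scaling by the median of ratios raises every ratio of the combination over isotype control, the median of all genes being 1.04 instead of 0.787. Calls for genes just short of 2-fold therefore depend on the scaling. H2-Ab1 stood at 6671, 8627, 3580 and 6723 CPM, or 1.01-fold (0.977–1.04). These lists were close to the median of all genes in the cells with Xcr1 or Flt3, at 0.976 and 0.971.

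All 4 Fcγ receptor genes (Fcgr1, Fcgr2b, Fcgr3 and Fcgr4) were called higher in the combination. Of the other members of that list, Fcer1g, the signalling chain, stood at 1.67-fold, short of 2-fold by total UMIs. Fcgr2b stood at 367, 623, 388 and 1426 CPM, 3.89-fold (3.45–4.39), and the activating receptor gene Fcgr3 at 328, 522, 195 and 1277 CPM, also 3.89-fold (3.43–4.42). The neonatal receptor gene Fcgrt was lower, at 223, 241, 120 and 68.7 CPM, 0.308-fold (0.246–0.384), but 0.956-fold in the cells with Xcr1 or Flt3. The higher genes were those shared with macrophages, and most of their UMIs lay in cells with neither Xcr1 nor Flt3, where Fcgr2b was at 741, 999, 381 and 1553 CPM. In the cells with Xcr1 or Flt3, Fcgr2b was 6.85-fold and Fcgr3 4.39-fold, the macrophage list having a median of 2.35 there, and these values rested on few cells. In the combination the Xcr1 cell named above and 1 Flt3 cell of 36936 UMIs held 164 and 1228 of the 1610 macrophage UMIs, 70 and 41 of the 150 Fcgr2b UMIs and 43 and 21 of the 81 Fcgr3 UMIs. Without the cell richest in macrophage UMIs of each set, the macrophage list summed to 1109 CPM in isotype control and 1074 in the combination, Fcgr2b to 82.3 and 192 CPM on 34 and 39 UMIs, and Fcgr3 to 48.4 and 83.8 CPM on 20 and 17 UMIs. The part of macrophage RNA in these values was not tested.

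Glycolysis and hypoxia genes were higher in the combination in 12 of 12 cases, with a median of 3.53. Slc2a1, the glucose transporter GLUT1, stood at 97.8, 303, 129 and 752 CPM, and Vegfa, the angiogenic growth factor, at 27.8, 192, 252 and 618 CPM, 22.3-fold (14.8–35.3). In the cells with Xcr1 or Flt3, 3 of 10 were higher and 0 lower, with a median of 1.52. Genes for the uptake of dying cells were higher in 6 of 10 cases and lower in 1 (median 2.26), among them Mertk, a receptor tyrosine kinase for phosphatidylserine-bound bridging proteins, at 3.62, 16, 30.4 and 78.1 CPM. Of 7 uptake genes compared in the cells with Xcr1 or Flt3, 2 were higher and 0 lower (median 1.22). Heat shock and immediate early genes were lower in 7 of 12 cases and higher in 0 (median 0.485). Their sum went from 8151 to 4481 CPM in the Xcr1 cells and from 5289 to 7412 CPM in the Flt3 cells. S phase genes were lower in 4 of 7 cases (median 0.466), while their sum stood at 1399 CPM in isotype control and 2964 in the combination in the Xcr1 cells and at 984 and 521 CPM in the Flt3 cells. Single cells held much of this, 261 of 432 UMIs in the Xcr1 cells of the combination and 157 of 349 in the Flt3 cells of isotype control, and without the cell with most UMIs in each set and library the values were 798 and 1435 CPM and 578 and 422 CPM. Of the G2 and M phase genes, 2 reached the minimum over all cells and 0 were called. Their sum was 157 and 2182 CPM in the Xcr1 cells and 764 and 112 CPM in the Flt3 cells, where 1 cell of isotype control held 200 of 271 UMIs. Without the cell with most UMIs in each set and library, the values were 86.1 and 1753 CPM and 213 and 114 CPM.

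Of 13 maturation genes 4 were higher and 1 lower (median 1.07, and 0.717 in the cells with Xcr1 or Flt3), of 20 cytokine and chemokine receptors 4 were higher and 3 lower (median 1.08), and of 13 sensors of nucleic acids and microbes 3 were higher and 2 lower (median 0.899). Beside these, 9.45% of all genes compared were called higher and 14.7% lower. Markers of other cells were summed as well. The NK list summed to 0, 1.34, 5.36 and 4.24 CPM, the T cell list to 291, 152, 30.4 and 42.4 CPM, the B cell list to 913, 482, 425 and 93.2 CPM and the neutrophil list to 187, 69.5, 33.9 and 316 CPM. The B cell list was led by Ighm, the IgM heavy chain gene, at 887, 469, 409 and 87.5 CPM with UMIs in 74 of 83, 42 of 60, 22 of 25 and 20 of 121 cells, and in T cells Ighm stood at 417, 289, 359 and 108 CPM. Tumor and stromal markers summed to 117, 1231, 686 and 122 CPM, with the Krt19 UMIs of the library titled anti-human CTLA-4 in 1 cell as above. Mast cell and basophil markers summed to 285, 0, 3.57 and 0.941 CPM. Of Cd209a dendritic cell markers, 2 of 10 were higher and 6 lower in the combination (median 0.344), and of monocyte markers 3 of 6 were higher and 2 lower (median 2.78).

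By size, the highest ratios of the combination were those of Inhba, the activin A subunit (at least 213-fold, against the floor of 3 counts), Tnfrsf9, the costimulatory receptor 4-1BB (198-fold, 67.6–961), Mmp8, a neutrophil collagenase (152-fold, 27.1–6019), and Mmp12, a macrophage elastase (116-fold, 90.9–151). Rnf128, Jag1, Clec4d, Ptges, Cxcl3 and Lpl followed, at 112-fold, 110-fold, 106-fold, 97.0-fold, at least 94.6-fold and at least 91.7-fold, and 71.4% of Lpl UMIs were in 1 cell. Mmp8, Rnf128, Jag1 and Ptges had 1 UMI in isotype control, and the intervals of Rnf128 (19.9–4433), Jag1 (19.6–4356) and Ptges (17.3–3848) are so wide that the order among these genes is not resolved. Tnfrsf9 had UMIs in 58 cells of the combination, all with neither Xcr1 nor Flt3, and 58 of the 60 cells with Inhba were of that kind too. In the Xcr1 cells Tnfrsf9, Cxcl3 and Lpl had no UMI in any library. Of the 10 lowest, 7 were Mcpt2, Ctla2a, Cpa3, Cma1, Tpsb2, Tpsab1 and Mcpt8, most of them mast cell and basophil proteases, whose UMIs in isotype control came almost wholly from the deepest cell. The others were Upb1 (0.0192-fold), Rtn4rl1 (0.0346-fold) and the progenitor factor Myb (0.0354-fold), which stood at 76.1, 53.7, 68.4 and 8.02 CPM in the Flt3 cells.

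**Figure D5:**
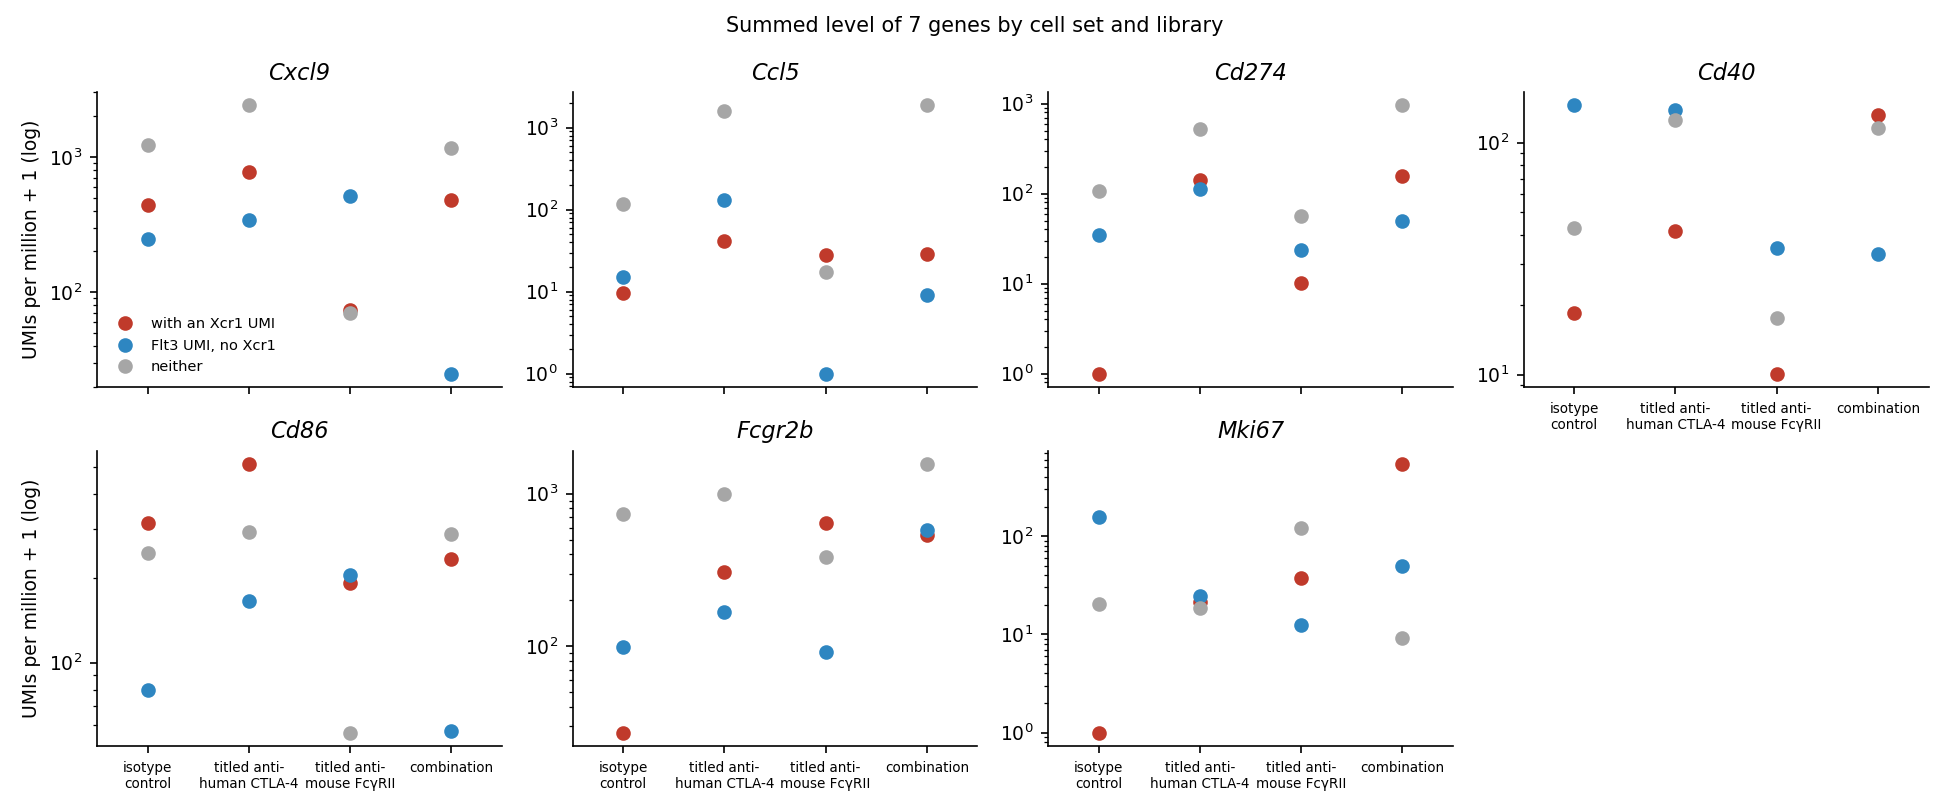
Summed level in CPM plus 1 (vertical log axes, 1 range per gene) of 7 genes in each library (horizontal axis) and cell set (colour), each point 1 set of 1 library with no replicate. Ccl5 and Cd274 of the combination are highest in the cells with neither gene, and Mki67 in the Xcr1 cells at 535 CPM.

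Between the library titled anti-human CTLA-4 and isotype control, 5224 genes were compared, 207 (3.96%) were called higher and 122 (2.34%) lower, with a median of 0.940. Of the identity genes 1 of 17 was higher and 0 lower, with a median of 0.976. Cytokines were higher in 5 of 14 cases and lower in 1 (median 1.64), glycolysis and hypoxia genes higher in 4 of 11 (median 1.75) and interferon response genes in 5 of 29 (median 1.33), while plasmacytoid markers were lower in 6 of 8 (median 0.443). Its highest ratios were those of Krt19, Areg, Krt8, Cav1 and Prag1, 4 of which had most of their UMIs in 1 cell, and its lowest were genes of the Mcpt2-rich cell of isotype control. Against this library, the combination had 306 of 5013 genes higher (6.1%) and 423 lower (8.44%). Macrophage markers were higher in 10 of 15 cases (median 3.86) and identity genes lower in 10 of 16 (median 0.478).

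The library titled anti-mouse FcγRII, with 25 cells, had 779 of 5851 genes higher (13.3%) and 317 lower (5.42%) than isotype control, with a median of 1.04. Without the deepest cell of each library, 263 of 5380 were higher (4.89%) and 209 lower (3.88%). Its highest ratios were those of Cav1, Htra1, Ltbp4, Col3a1 and Fosl1, each with 77.8% or more of its UMIs in 1 cell. Interferon response genes were lower in 21 of 26 cases (median 0.334). Cytokines were lower in 6 of 11 and higher in 1 (median 0.318) and identity genes lower in 4 of 18 and higher in 1 (median 0.638), whereas G2 and M phase genes were higher in 10 of 11 (median 4.44). Without the deepest cells, 0 of 2 G2 and M phase genes were higher and 2 lower, identity genes were higher in 3 of 19 and lower in 1 (median 0.966), cytokines were lower in 6 of 13 and higher in 1 (median 0.761), and interferon response genes were still lower in 16 of 26 (median 0.436). Against this library, the combination had 484 of 5741 genes higher (8.43%) and 1377 lower (24%). The deepest cells were kept in that comparison. Of the G2 and M phase genes 10 of 11 were lower there, and the deepest cell of the library titled anti-mouse FcγRII held 158 of its 159 Top2a UMIs. These comparisons share libraries, so their values are given side by side only.

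Set beside other dendritic cells, the genes that led the cells of the rule were partly those of the rule itself. Over Cd209a dendritic cells the leading genes were Clec9a, Cd63, Rab7b, Cfb, Carmil1 and Tlr3, and over C1q macrophages they were Clec9a, Plet1 (112-fold to 1450-fold over the 4 libraries), Kmo (31.1-fold to 77.7-fold), P2ry10 and Cd209a. Cd63, a lysosomal tetraspanin, had UMIs in 7 of 83, 9 of 60, 3 of 25 and 57 of 121 cells, and 1 cell held 75 of its 101 UMIs in isotype control, 25 of 47 and 119 of 240 in the single-antibody libraries. Plet1, a lipid-anchored surface protein, had UMIs in 6, 11, 5 and 10 of all cells of the rule and 454.8, 550, 264 and 878 CPM in the Xcr1 cells. Kmo, kynurenine 3-monooxygenase, had 490.6, 564, 410.3 and 281 CPM in the Flt3 cells against 122, 265, 118 and 213 CPM in the Xcr1 cells. Over Ccr7 dendritic cells they were Ccr2 (8.63-fold to 28.1-fold), the chemokine receptor of monocytes and some dendritic cells, then Cd300a, Tifab and Amz1. All 10 cDC1 markers were higher in the Xcr1 cells than in Cd209a dendritic cells in 4 of 4 libraries, and 9 of 10 were higher than in C1q macrophages.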

How the data were processed

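The deposited values are raw counts of UMIs for every gene in every cell called, which the authors made with Cell Ranger, named as 7.0.0 with mm10 in the submitters' processing notes and as 7.2.0 in the matrix headers, from Chromium Flex probe libraries. The table holds 19059 genes. Counts were read in Python 3.11.15 with numpy 2.4.6 and scipy 1.17.1, and Scrublet in scanpy 1.11.5 scored doublets. UMIs were summed over cells per library and set and given per 1000000 UMIs (CPM). Intervals are 95%, exact for shares and for ratios of counts and on the log scale for ratios of shares, and cover counting error only. The highest share that a count of 0 allows is given as 3 divided by the number of cells, an approximate limit and not the exact interval. With 0 UMIs on one side, a floor of 3 counts per library was used. The calling of genes past 2-fold was tested on simulated counts. The members and gene lists were chosen with earlier results of these data known. Comparison cells passed the same filters: Cd209a dendritic cells (at least 2 Cd209a and 0 Xcr1 and Clec9a UMIs under the rule's other limits), Ccr7 dendritic cells (at least 2 UMIs each of Ccr7 and Fscn1), C1q macrophages (at or over the C1q limit, 0 Xcr1 and Clec9a UMIs unless stated) and T cells (over 2 Cd3 UMIs). Shares with a UMI are means over 100 random draws (10 for macrophages). Named genes were the identity and rule genes, the extremes of each list, preset effector genes, and the 10 (single antibodies, 5) highest and lowest called ratios. Some genes that this rule names are not reported here.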

Additional observations from a re-analysis of the deposited data

How the results depend on the processing

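The combination's share stood above that of isotype control under the rule (1.56-fold), but at 0.834-fold with at least 1 UMI of both Xcr1 and Clec9a, or with at least 1 Xcr1 UMI (a choice made after seeing the data), at 0.390-fold with a Flt3 UMI as well and at 0.971-fold in cells drawn down to 1 depth. With an Xcr1 UMI the library titled anti-mouse FcγRII stood at 0.744-fold of isotype control. With a Flt3 UMI the combination stood at 0.496-fold of the library titled anti-human CTLA-4 and 0.915-fold of that titled anti-mouse FcγRII. Genes called higher in the combination numbered 502, and 769 with size factors, 798 with no minimum, 765 at 1.5-fold and 291 in cells with an Xcr1 or Flt3 UMI. Genes called lower numbered 779, and 391, 1579, 1800 and 248 in the same order, and 1228 with a minimum of 20 CPM. In the cells with an Xcr1 or Flt3 UMI, also chosen after seeing the data, medians crossed 1 for the identity list (1.12), S phase (1.80), heat shock and immediate early (1.03), G2 and M phase (2.65), interferon response (0.935), costimulation (0.795), maturation (0.717), MHC class I (0.976) and neutrophil genes (0.363). This class held 9 Xcr1 and 39 Flt3 cells in isotype control and 7 and 10 in the combination, and in the Flt3 cells alone the identity (7325 to 3570 CPM), S phase (984 to 521) and G2 and M phase sums (764 to 112) were lower, the last resting on 1 cell with 200 of 271 UMIs (213 to 114 without the cell with most UMIs of each library). Ratios of 77 of 252 list and named genes compared in both crossed 1, 21 of them among 132 called. Of the called genes that the naming rule covers, these were Batf3 (1.10), Btla (1.24), Ccr2 (1.07), Cd209a (1.21), Cd24a (1.02), Cd63 (0.137), Irf8 (1.09), Mcm2 (1.07), S100a8 (0.592), Tlr3 (1.38) and Wdfy4 (1.41). The cause was not tested. Of the other values 365 moved by more than their interval and 1257 did not. No paired analysis was possible because each group has 1 library. With 26 Xcr1 cells, differences between libraries below about the width of the intervals were not detectable.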
